A study of Mus musculus with 5 samples.

Results

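The comparison described here sets the ATRX binding sites of mouse neurons that received TBC1D3 beside those of neurons that received mCherry, both at day 14 in vitro (DIV14). Its members are all deposited ATRX peaks of these 2 libraries on chromosomes 1 to 19, which came to 291315 of the 651098 peaks of the whole series, 195085 of them in the TBC1D3 list and 96230 in the mCherry list. The neurons were primary cultures from C57BL6/J mouse embryos of embryonic day 15.5 to 17.5, and every group was infected with lentivirus on day 5 in vitro. ATRX was precipitated from enzymatically fragmented chromatin with 1 antibody and sequenced in pairs of reads, with input DNA as the background. Each group had 1 library, so no difference between the conditions could be tested. mCherry, a red fluorescent protein, serves as the control here, since the series' design text names a control group and the labels give no other one at DIV14. Lists from another DIV14 culture, labelled MICAL1-M1 (its peak names carry another tag, M2), and from mCherry neurons at DIV7 were used only as side readouts. The promoter that drove the transgenes, the share of infected cells and the glia in the cultures were not stated in any source read here, and no file used here measures TBC1D3, mCherry or ATRX themselves. An ATRX peak at a gene is not its expression, so the peaks could not check the cell type.

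ATRX is a chromatin remodeller of the SNF2 family. With its partner DAXX it places the histone variant H3.3 at telomeres, pericentromeric repeats and other silent sequence, and its loss in people causes an intellectual disability syndrome. TBC1D3 is a gene of apes and humans with no mouse counterpart, and its protein carries the TBC domain found in proteins that switch off Rab GTPases, the small proteins that direct vesicle traffic. MICAL1 is an enzyme that oxidises actin.

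A peak is a stretch of the genome where ATRX fragments pile up above the local background, and its summit is the highest point. The peak's fold is the authors' ratio of the pileup to that background. The TBC1D3 list was longer but rested on fewer fragments per peak. Pileups recovered from each peak's fold and p had a median of 4 fragments in the TBC1D3 list and 9 in the control list, over a most common background of 1.217 and 3.564 fragments. In the TBC1D3 list 66.8% of peaks stood on 3 or 4 fragments and 0.716% on 8 or more, compared with 93.4% on 8 or more in the control. Both lists had been cut at an uncorrected p of 0.05, and a corrected p (q) of at most 0.05 was reached by 296 TBC1D3 peaks and 4029 control peaks. The TBC1D3 peaks covered 72.5 Mb with a median width of 324 bp and the control peaks 52.9 Mb with a median width of 432 bp. The most common background was 2.611 fragments in the MICAL1-M1 library and 1.284 in the DIV7 library, so the DIV7 library was the one closest to TBC1D3 in depth. Every comparison of TBC1D3 with the control below sets a deep library against a shallow one, and TBC1D3 and depth cannot be told apart in it.

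Promoters of both kinds, those with ATRX peaks in both lists and those with peaks in 1 list, can be read directly. The 300-base windows below run from 250 bases before to 50 bases after a transcription start (RefSeq, GRCm38.p6), with every CG dinucleotide in capitals, because CG content is what sorted the promoters most clearly further on. Frmd3, which encodes a membrane-skeleton FERM domain protein, lies at chr4:74013353-74013652 on the plus strand and Arl4c, a small GTPase of the ARF family, at chr1:88702142-88702441 on the minus strand. Both had a peak in both lists.
Frmd3: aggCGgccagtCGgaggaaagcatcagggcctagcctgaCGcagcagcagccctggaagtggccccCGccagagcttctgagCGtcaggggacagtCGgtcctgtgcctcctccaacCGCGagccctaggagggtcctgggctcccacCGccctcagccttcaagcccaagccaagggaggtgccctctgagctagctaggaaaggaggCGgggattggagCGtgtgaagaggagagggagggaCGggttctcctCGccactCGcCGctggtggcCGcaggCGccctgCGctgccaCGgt
Arl4c: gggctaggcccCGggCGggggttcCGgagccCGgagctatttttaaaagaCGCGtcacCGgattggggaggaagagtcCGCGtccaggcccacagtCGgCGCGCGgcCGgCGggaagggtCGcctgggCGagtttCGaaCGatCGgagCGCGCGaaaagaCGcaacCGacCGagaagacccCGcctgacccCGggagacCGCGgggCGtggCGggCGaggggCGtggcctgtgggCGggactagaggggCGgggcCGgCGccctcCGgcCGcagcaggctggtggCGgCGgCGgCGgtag
Ttc19, a mitochondrial complex III assembly factor, lies at chr11:62281223-62281522 on the plus strand, and Hey2, a Notch-induced repressor, at chr10:30842734-30843033 on the minus strand. Both had a peak in the control list alone, with no TBC1D3 peak within 10 kb of the gene.
Ttc19: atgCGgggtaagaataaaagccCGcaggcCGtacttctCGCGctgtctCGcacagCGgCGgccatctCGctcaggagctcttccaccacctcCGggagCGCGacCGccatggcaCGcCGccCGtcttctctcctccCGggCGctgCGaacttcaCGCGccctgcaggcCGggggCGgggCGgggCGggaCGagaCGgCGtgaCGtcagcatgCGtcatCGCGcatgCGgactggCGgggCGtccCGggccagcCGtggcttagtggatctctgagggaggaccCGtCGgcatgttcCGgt
Hey2: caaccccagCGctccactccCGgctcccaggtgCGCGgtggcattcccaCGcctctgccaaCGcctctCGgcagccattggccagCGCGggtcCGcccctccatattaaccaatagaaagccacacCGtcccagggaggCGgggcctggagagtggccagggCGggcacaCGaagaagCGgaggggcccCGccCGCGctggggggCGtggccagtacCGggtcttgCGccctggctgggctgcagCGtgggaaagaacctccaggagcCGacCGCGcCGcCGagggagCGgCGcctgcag
Aldh1b1, a mitochondrial aldehyde dehydrogenase, lies at chr4:45798772-45799071 on the plus strand. It had a peak in the TBC1D3 list alone, with no control peak within 10 kb of the gene.
Aldh1b1: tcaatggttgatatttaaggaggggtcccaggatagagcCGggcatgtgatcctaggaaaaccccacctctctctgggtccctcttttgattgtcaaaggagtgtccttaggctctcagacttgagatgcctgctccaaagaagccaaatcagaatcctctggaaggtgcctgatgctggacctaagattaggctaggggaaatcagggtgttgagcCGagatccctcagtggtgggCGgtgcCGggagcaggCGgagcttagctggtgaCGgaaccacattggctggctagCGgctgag
The Frmd3 window held 19 CG dinucleotides and the Arl4c window 44. Ttc19 had 40 and Hey2 29, while the Aldh1b1 window had 7. The Aldh1b1 summit in the TBC1D3 list lay 188 bases upstream of the start and inside the printed window. The control summit at Frmd3 lay 19 bases downstream of the start and the one at Ttc19 198 bases upstream, both inside their windows. The other summits lay outside the printed letters: the TBC1D3 summit at Frmd3 422 bases downstream, the Arl4c summits 306 bases downstream in the control and 257 upstream in TBC1D3, and the Hey2 summit 283 upstream.

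The lists met at few places, and they met most often at the strongest ATRX sites. A TBC1D3 peak overlapped 12226 of the 96230 control peaks by at least 1 bp, a share of 12.7% (95% exact binomial interval 12.5 to 12.9%, counting error only, as for all intervals given here). From the other side, a control peak overlapped 12550 of the 195085 TBC1D3 peaks, 6.43% (6.32 to 6.54%). The local background was measured by moving the same peaks by 10 kb to either side, which keeps them in the same neighbourhood: moved control peaks were overlapped in 8.72% of cases and moved TBC1D3 peaks in 4.36%. Peaks in place thus exceeded moved ones by 1.46 and 1.48 times. Among the 1000 control peaks of smallest p, 38.2% (35.2 to 41.3%) were overlapped, against 15.75% when moved. In the last class, ranks 60001 to 96230, the shares were 9.69% and 7.73%. The TBC1D3 list behaved likewise at its top, with 20.3% (17.8 to 22.9%) of its 1000 strongest peaks overlapped against 5.50% when moved, and fell to 5.42% against 4.17% beyond rank 60000.

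**Figure D1:**
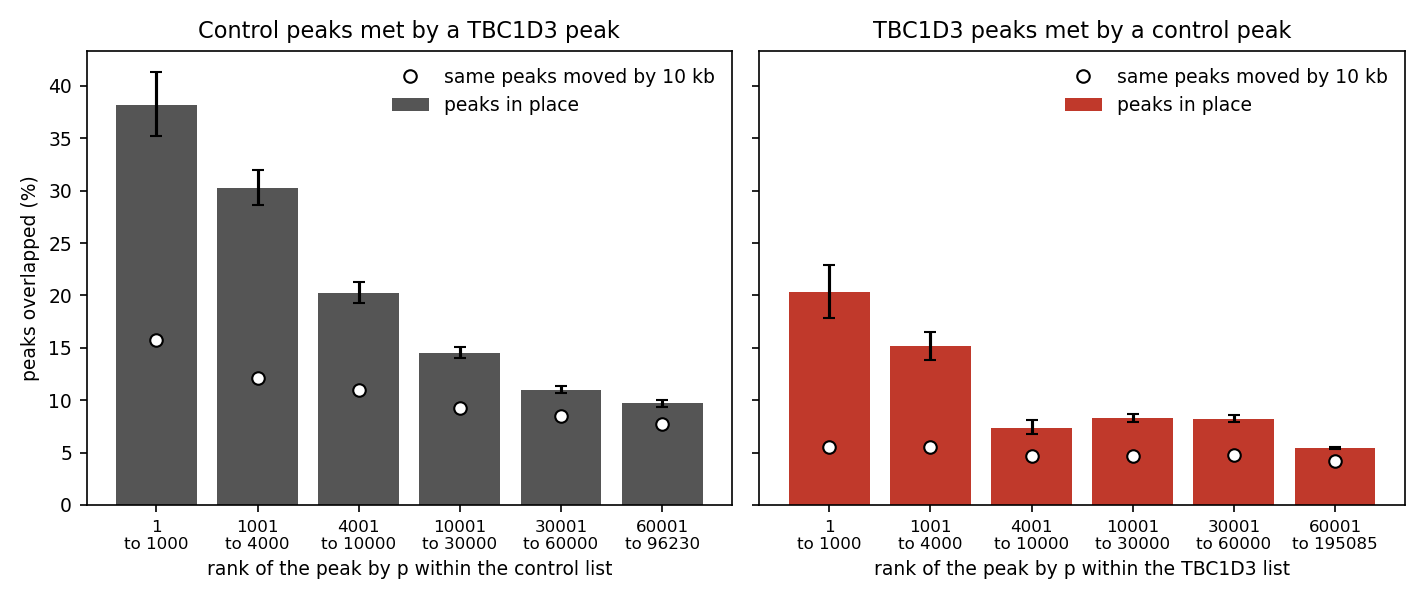
Share of peaks overlapped by a peak of the other list (percent, bars with 95% exact binomial intervals) by rank of the peak within its own list, for control peaks on the left and TBC1D3 peaks on the right, with the same peaks moved by 10 kb as open circles. The first bar stands at 38.2% over a circle at 15.75% for the control and at 20.3% over 5.50% for TBC1D3, and the gap narrows with rank.

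Equal list length lowered the overlap and left it above the local background. With the TBC1D3 list shortened to its 96230 peaks of smallest p, 7.24% (7.08 to 7.41%) of control peaks were overlapped and 4.45% of moved ones. That shortening divides a large group of TBC1D3 peaks with the same p, and those kept were taken from the lowest chromosome numbers first. A second version, chosen after seeing these ties, took both lists only down to a whole p level, with 60591 TBC1D3 and 61313 control peaks. In it 6.46% of control peaks were overlapped (3.27% moved) and 6.65% of TBC1D3 peaks (3.31% moved), about 2 times the local background on either side (1.98 and 2.01). Even so the smallest pileup was 5 fragments in the TBC1D3 list and 9 in the control. The lists cut at whole p levels are used below wherever equal length matters.

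Sites found in both lists recurred in the other 2 libraries far more often than sites found in 1 list. Of the shared sites, counted as control peaks, 41.7% (40.8 to 42.5%) met a MICAL1-M1 peak and 21.8% (21.1 to 22.5%) a DIV7 peak, against 11.7% and 11.1% when moved. Control-only sites were overlapped in 19.8% (9.15% moved) and 10.8% (8.76% moved) of cases. TBC1D3-only sites were overlapped in 7.01% (6.89 to 7.13%) and 8.80% (8.67 to 8.93%), against 5.56% and 6.98% when moved. The last pair exceeded the local background by 1.26 times in either library, compared with 3.56 and 1.97 times for shared sites. Strength changed this only in part. Among the 4000 strongest TBC1D3 peaks, the 3343 without a control peak recurred in MICAL1-M1 in 11.0% (6.25% moved) and in DIV7 in 16.4% (9.08% moved), whereas the 2710 strongest control peaks without a TBC1D3 peak recurred in 55.5% (11.9% moved) and 22.9% (11.7% moved). Set side by side, 22.5% of all control peaks were overlapped by MICAL1-M1 peaks (9.48% moved), 12.2% by DIV7 peaks (9.05% moved) and 12.7% by TBC1D3 peaks (8.72% moved). The 2 shallow libraries gave nearly the same share of the control's sites.

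Transcription starts held the clearest difference in position. Starts were known for 16457 of the 20665 protein-coding genes (79.6%), none on chromosome 18, and 1.46% of the sequence span, the stretch of each chromosome from the first to the last peak of these 2 lists, lay within 1 kb of one. Of the shared sites, 17.8% (17.1 to 18.4%) had their summit there. Control-only sites followed with 7.10% (6.93 to 7.27%), and TBC1D3-only sites lay at 1.51% (1.46 to 1.57%), which is 1.03 times their share of the span. Shared sites were thus 12.1 times and control-only sites 4.85 times as frequent at starts as the span would give. The ends of genes away from the start did not gather summits: within 1 kb of them lay 1.21% of shared, 1.05% of control-only and 1.17% of TBC1D3-only summits, over 1.31% of the span. The share at starts ran with depth over the 4 lists, from 8.45% in the control and 5.21% in MICAL1-M1 to 2.58% in TBC1D3 and 2.40% in DIV7, the same order as that of the background fragments except that TBC1D3 and DIV7 changed places. The part of depth in this order was not tested.

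**Figure D2:**
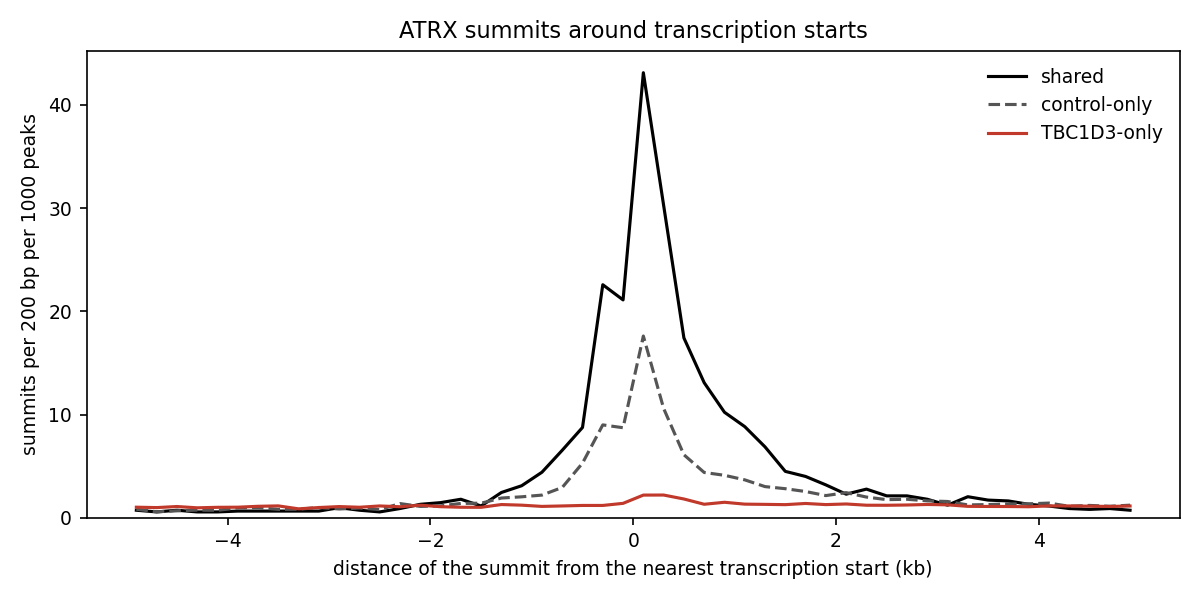
ATRX summits around the nearest transcription start, as summits in each 200 bp step per 1000 peaks of their class (vertical axis), by distance from the start in kb (horizontal axis, positive into the gene), for shared, control-only and TBC1D3-only peaks. In the first 200 bp of the gene, shared peaks reach 43.1, control-only peaks 17.6 and TBC1D3-only peaks 2.20 per 1000.

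Close to the start the summits were not symmetric. In the first 200 bp inside the gene, 43.1 of every 1000 shared and 17.6 of every 1000 control-only summits were found, against 21.1 and 8.73 in the 200 bp before it. TBC1D3-only summits had a low rise at the same place, 2.20 per 1000 in the first 200 bp of the gene against 1.03 per 1000 in the step from 5000 to 4800 bp upstream. In that rise stood 402 summits.

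**Figure D3:**
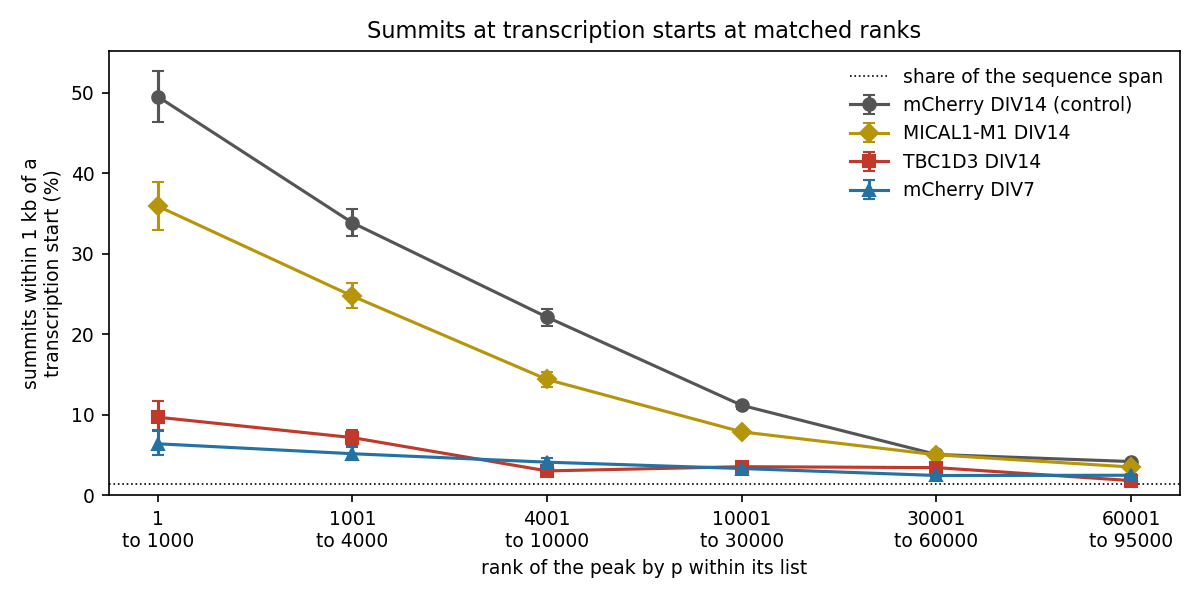
Percent of summits within 1 kb of a transcription start (vertical axis, with 95% exact binomial intervals) by rank of the peak within its list (horizontal axis) in all 4 lists, with the share of the sequence span as a dotted line. At the first 1000 ranks the control stands at 49.5%, MICAL1-M1 at 35.9%, TBC1D3 at 9.70% and DIV7 at 6.40%.

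Ranking the lists alike did not bring them together. Of the 1000 strongest peaks, 49.5% (46.4 to 52.6%) lay at starts in the control and 9.70% (7.94 to 11.7%) in TBC1D3. At ranks 1001 to 4000 the shares were 33.8% and 7.17%, and at ranks 60001 to 95000 they were 4.19% and 1.83%. Median pileups at those ranks went from 18 to 15 and 8 fragments in the control and from 8 to 7 and 4 in TBC1D3, so equal rank was not equal depth. The DIV7 list, at 6.40% (4.96 to 8.10%) for its first 1000 peaks, had an interval that overlapped that of TBC1D3. The intervals also overlapped at ranks 10001 to 30000, with 3.56% in TBC1D3 and 3.33% in DIV7. At the other ranks they were separate, but the order changed. TBC1D3 was higher at ranks 1001 to 4000, with 7.17% (6.27 to 8.15%) against 5.17% (4.40 to 6.02%), and at ranks 30001 to 60000, with 3.44% against 2.46%. DIV7 was higher at ranks 4001 to 10000, with 4.12% against 3.03%, and at ranks 60001 to 95000, with 2.49% against 1.83%. The control's ranks 60001 to 95000 and the first 1000 TBC1D3 ranks had the same median pileup of 8 fragments, over backgrounds of 3.564 and 1.217, and their shares at starts were 4.19% and 9.70%.

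Gene bodies held more of the control's ATRX sites than their share of the span, and those of TBC1D3 alone lay near that share. Gene bodies of protein-coding genes make up 40.9% of the span and held 58.1% (57.3 to 59.0%) of shared summits, 53.7% (53.4 to 54.0%) of control-only summits and 39.5% (39.3 to 39.7%) of TBC1D3-only summits. Long genes took part in this: bodies of 100 to 500 kb (16.8% of the span) held 25.6%, 24.6% and 17.4%, and bodies of 500 kb or more (7.50% of the span) held 9.93%, 12.1% and 7.89%. Outside genes but under 10 kb from one (9.81% of the span) the classes lay close together, with 10.5% of shared, 8.54% of control-only and 8.83% of TBC1D3-only summits. Gene deserts, over 500 kb from any protein-coding gene (8.38% of the span), held 2.87% of shared, 4.76% of control-only and 7.67% of TBC1D3-only summits. Pseudogenes with 500 bp around them showed the same split, with 0.483%, 0.519% and 1.33% of summits over 1.31% of the span.

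Genes for tRNAs and, less so, miRNAs held many of the shared sites for their size. Within 500 bp of the 391 tRNA genes, which make up 0.0152% of the span, lay 31 shared summits (0.254%, 0.172 to 0.360%), 94 control-only summits (0.112%, 0.0904 to 0.137%) and 30 TBC1D3-only summits (0.0164%, 0.0111 to 0.0235%). These are 16.7, 7.35 and 1.08 times the span's share. Of the control's 4000 strongest summits, 0.725% were at tRNA genes. At the 1136 miRNA genes (0.0457% of the span) the shares were 0.180%, 0.0798% and 0.0515%. At the 1286 genes for small nucleolar RNAs (0.0574% of the span) the classes were not set apart. The shares were 0.0409% (5 summits, 0.0133 to 0.0954%), 0.0476% (0.0340 to 0.0648%) and 0.0635% (0.0525 to 0.0762%), with intervals that overlapped.

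Chromosome by chromosome the comparison was even. The share of control peaks overlapped by a TBC1D3 peak ran from 11.3% on chromosome 16 to 13.8% on chromosome 8, and the share of the TBC1D3 list on a chromosome divided by that of the control list ran from 0.906 on chromosome 2 to 1.12 on chromosome 17. On a scale of 1 Mb the control was uneven and TBC1D3 flat. Over 2413 bins of 1 Mb the control had a median of 37 peaks, with 11 at the 10th and 72 at the 90th percentile, while TBC1D3 had a median of 81, with 56 and 107. Their coefficients of variation were 0.612 and 0.269, with 0.489 in MICAL1-M1 and 0.213 in DIV7. The part of depth in this was not tested. Sorting the bins by their MICAL1-M1 peaks, which neither list used, the emptiest of 5 equal classes held 6.25% of control and 14.6% of TBC1D3 peaks, and the fullest 36.8% and 24.2%. Bin counts of control and TBC1D3 correlated across bins with a Pearson r of 0.586 and those of TBC1D3 and DIV7 with 0.688, as a description over neighbouring bins that are not independent.

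The bins that differed most in share of their list held neuronal genes on the control side. The first was chromosome 2 from 7000001 to 8000000 in Celf2, an RNA-binding splicing regulator, with 187 control and 139 TBC1D3 peaks. Arpp21, a phosphoprotein of striatal neurons (chromosome 9 from 112000001 to 113000000), followed with 139 and 111, and Ntm, the adhesion protein neurotrimin (chromosome 9 from 29000001 to 30000000), with 133 and 102. Each was a peak-rich bin in all 4 lists: the bin of Celf2 had 181 MICAL1-M1 and 171 DIV7 peaks. On the TBC1D3 side the first was a zinc finger gene cluster on chromosome 4 from 147000001 to 148000000 (Zfp978, Zfp991, Zfp988 and others), with 6 control, 204 TBC1D3, 19 MICAL1-M1 and 122 DIV7 peaks. The neighbouring cluster from 146000001 to 147000000 (Zfp987, Zfp600, Zfp992 and others) had 2, 103, 5 and 80. The bin with the T-box genes Tbx3 and Tbx5 on chromosome 5 from 119000001 to 120000000 had 12, 119, 28 and 111. The shallow DIV7 mCherry list had a median of 86 peaks a bin, with 109 at the 90th percentile. Its 122 and 111 peaks in the first and last of these bins stood above that, so a high count there was not seen with TBC1D3 alone. Its 80 peaks in the bin from 146000001 lay below its median, though far above the count of the control.

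A few places carried pileups far above the rest of the TBC1D3 list. Peaks with a -log10 p over 100, joined within 50 kb, fell in 8 regions. The longest was the start of chromosome 9 from 3000011 to 3038303, with 18 TBC1D3 peaks over 31391 bp, 26 DIV7 peaks over 25602 bp, 19 MICAL1-M1 peaks over 10580 bp and 4 control peaks over 1756 bp. Chromosome 2 from 98662240 to 98667323 had the peak of smallest p, with a fold of 4.85 in TBC1D3, 3.79 in DIV7, 1.82 in MICAL1-M1 and 1.21 in the control. Chromosome 14 from 19415723 to 19419475 had 6.36-fold in TBC1D3, 3.98 in DIV7, 1.83 in MICAL1-M1 and no control peak. Of the 8 regions 2 lay at or near a protein-coding gene, Chl1, a neural adhesion protein (chromosome 6 from 103649065 to 103649302) and Mdga2, another neural adhesion protein (chromosome 12 from 67059266 to 67059786), and neither had a control peak. The region at Mdga2 had a DIV7 peak at 2.87-fold, with 3.09-fold in TBC1D3. The one at Chl1 had no peak in MICAL1-M1 or DIV7. Whether reads in these regions come from repeated sequence was not tested, since the lists do not show how reads with several matches were treated.

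At the level of genes, whether a gene occupied in the control was also occupied with TBC1D3 turned on the window. Here a gene was called occupied when a summit lay within 1 kb of either end. Of 20665 genes, 3886 were occupied in both lists (18.80%), 5264 in the control alone (25.50%), 3293 in TBC1D3 alone (15.90%) and 8222 in neither (39.80%). In total 44.30% were occupied in the control and 34.70% in TBC1D3. Of the genes occupied in the control, 42.50% were also occupied with TBC1D3, and with lists cut at whole p levels 22.30%. In a window of 3 kb in place of 1 kb the share was 67.90%, with 55.50% of all genes occupied in the control and 59.80% in TBC1D3. The lists cut at whole p levels had 1703 genes in both (8.24%), 5929 in the control alone (28.70%) and 1553 in TBC1D3 alone (7.52%). Taking starts only, the 16457 genes divided into 2831 (17.20%), 4725 (28.70%) and 1823 (11.10%). Occupied in both lists did not always mean the same place: in 2516 of the 3886 genes (64.7%) a control and a TBC1D3 summit lay within 1 kb of each other, and in 1932 (49.7%) the peaks overlapped.

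Gene classes differed in the 2 libraries that did not define them. A gene-end summit was present in MICAL1-M1 at 70.4% of the genes of both lists, 59.8% of control-only genes, 31.1% of TBC1D3-only genes and 17.4% of the rest. In DIV7 the shares were 46.6%, 38.1%, 34.2% and 26.2%. TBC1D3-only genes stood above genes of neither list in both libraries, but those are the lowest class and no measure of all genes. Against control-only genes, TBC1D3-only genes stood far lower in MICAL1-M1 and near them in DIV7. They were shorter, with a median length of 15723 bp against 29692.5 bp for genes of both lists, 23721 bp for control-only genes and 11149 bp for the rest. The share of genes found again rose slowly with the strength of the control peak: of the 666 genes whose best control peak ranked in the first 1000, 49.7% (45.8 to 53.6%) were occupied with TBC1D3 and 50.3% at DIV7, while of the 1518 genes ranked beyond 60000, 38.7% (36.3 to 41.2%) and 37.6% were. MICAL1-M1 had 80.0% and 52.5% of these genes.

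The 10 genes best supported in both lists had 17 to 20 fragments at their control peak and 7 to 9 at their TBC1D3 peak. At Tmem229a, a membrane protein gene, the control peak (chromosome 6 from 24955032 to 24957399) stood at 4.16-fold on 18 fragments and the TBC1D3 peak (24954888 to 24956027) at 4.19-fold on 9. Pik3r1, the regulatory subunit of PI3-kinase, had 4.30-fold on 19 fragments and 3.61-fold on 7 at its upstream start on chromosome 13. Fzd8, a Wnt receptor on chromosome 18, had 3.94-fold on 17 and 4.06-fold on 8. Folds of these genes were alike in the pair of lists, on fewer fragments in TBC1D3. All 10 were picked for a small p in both lists, a choice that favours like folds. The others were Frmd3, Arl4c, Dtwd2, Zfp68, Pcnx4, and Zfp131 with the neighbouring Gm46390, which share 1 peak in each list. At Pcnx4 the 2 peaks were not the same site, since the control peak lay at the start (chromosome 12 from 72536146 to 72537226) and the TBC1D3 peak at the other end (72579386 to 72579863). All 10 were occupied in MICAL1-M1 and 7 in DIV7, with 70.4% and 46.6% of all genes of both lists.

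Control-only genes were chosen among the 610 with no TBC1D3 peak within 10 kb. The first were Ttc19 and Zswim7, a recombination factor gene, which lie head to head on chromosome 11 and share 1 peak from 62280969 to 62281793 at 4.62-fold on 21 fragments. Fahd1, a mitochondrial decarboxylase, had 4.60-fold on 20 fragments (chromosome 17 from 24849671 to 24850814). Ahcy, which hydrolyses the by-product of methylation reactions, had 4.03-fold on 21 (chromosome 2 from 155073881 to 155075698). Anks3, Cep57, H3c6, Hey2, Rpain and Tbl2 stood at 4.16-fold on 18 fragments each, a level reached by further genes, so that alphabetical order decided which were named. All 10 were occupied in MICAL1-M1 and 2 of them, Cep57 and Hey2, in DIV7, with 59.8% and 38.1% of all control-only genes.

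TBC1D3-only genes were chosen among the 1403 with no control peak within 10 kb. Sfi1, a centrosome protein gene on chromosome 11, led with 5.74-fold on 24 fragments. Gm51573 on chromosome 8 had 3.46-fold on 31 fragments, and Duxf3, of the double homeobox family on chromosome 10, 3.48-fold on 29. The other 7 had 4.06-fold on 8 fragments each, again with ties settled by the alphabet: Aldh1b1, Art1 and Art5 (ADP-ribosyltransferases that share 1 peak), Col9a2 (a cartilage collagen), Slc52a3 (a riboflavin transporter), Syce3 (a meiotic synapsis protein) and Tmem81. Only Aldh1b1 of the 10 was occupied in MICAL1-M1, against all 10 of the control-only genes above. In DIV7 5 were occupied, against 2 of the control-only genes. The 5 were Sfi1, Gm51573, Duxf3, Aldh1b1 and Slc52a3. The first 3 also had the highest pileups, 24 to 31 fragments in a list with a median of 4. Over all TBC1D3-only genes the shares were 31.1% in MICAL1-M1 and 34.2% in DIV7, and over all control-only genes 59.8% and 38.1%. The DIV7 counts of 10 genes are too small to set the groups apart.

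Genes of the synapse were occupied more often than genes overall in either list, and more often in the control. Of 56 postsynaptic glutamate genes, 43 were occupied in the control (76.8%, with 44.30% of all genes) and 36 in TBC1D3 (64.3%, with 34.70% of all genes), 29 of them in both, 14 in the control alone and 7 in TBC1D3 alone. The NMDA receptor subunit gene Grin2b had 3.72-fold on 16 fragments in the control and 3.60-fold on 7 in TBC1D3. The metabotropic receptor gene Grm7 had 4.16-fold on 18 and 2.47-fold on 6. In the control alone stood the AMPA receptor subunit gene Gria2 (3.60-fold on 16) and the kinase subunit gene Camk2b (3.07-fold on 13), and in TBC1D3 alone Grin2c (2.70-fold on 5) and Cacng2, an AMPA receptor auxiliary subunit (2.59-fold on 5).

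Presynaptic release genes had 38 of 55 occupied in the control (69.1%) and 23 in TBC1D3 (41.8%), with 17 in both. Over all genes the shares were 44.3% in the control and 34.7% in TBC1D3. Ppfia2, an active zone scaffold, counted in both with 4.34-fold on 20 fragments at its start in the control and 2.26-fold on 4 at its other end in TBC1D3. Bsn, the bassoon gene, had 3.51-fold on 15 and 1.80-fold on 3 at its start. Syt2, a calcium sensor of vesicle fusion, had 2.68-fold on 5 in TBC1D3 alone. For inhibitory synapse genes the counts were 19 (63.3%) and 13 (43.3%) of 30. The chloride transporter pair split between the lists: Slc12a2 (NKCC1) had 3.94-fold on 17 fragments in the control alone, and Slc12a5 (KCC2) 2.23-fold on 6 in TBC1D3 alone. Voltage-gated channel genes were occupied in 37 of 63 cases (58.7%) in either list, 25 of them in both. Axon guidance genes were occupied in 57 (67.9%) and 38 (45.2%) of 84.

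Bodies of the neuronal genes held more of the control's summits than their share of the span, and in TBC1D3 they lay closer to that share. The same held for protein-coding gene bodies in general, with 1.33 times the span in the control and 0.996 times in TBC1D3. Bodies of 100 to 500 kb held 1.47 and 1.06 times, so the presynaptic and channel lists below stood near long genes of any kind. Bodies of postsynaptic glutamate genes (0.722% of the span) held 1.32% (1.25 to 1.40%) of the control's summits and 0.780% (0.742 to 0.820%) of TBC1D3's, which is 1.83 and 1.08 times the span. Bodies of presynaptic release genes held 1.56 and 1.01 times their span, inhibitory synapse genes 1.72 and 1.002 times, axon guidance genes 1.78 and 1.07 times and general neuron markers 3.22 and 1.31 times. The interval of TBC1D3 lay above the span for postsynaptic genes, for axon guidance genes (0.732 to 0.810% over 0.721%), for neuron markers (at least 0.0950% over 0.0832%) and for voltage-gated channel genes (0.454 to 0.516% over 0.444%, 1.09 times, with 1.58 times in the control). The excess in the control was not confined to neuronal genes, since bodies of astrocyte markers held 2.14 times their span, those of oligodendrocyte markers 1.71 times and those of ribosomal protein genes 2.83 times. The DIV7 values for the postsynaptic, presynaptic, inhibitory, axon guidance and neuron marker lists were 1.07, 0.924, 0.987, 1.01 and 1.11. The bodies of immediate early genes, the first genes switched on by neuronal activity, held 4.43 times their span in the control (84 summits) against 1.22 times in TBC1D3 (47 summits) and 1.54 times in DIV7.

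**Figure D4:**
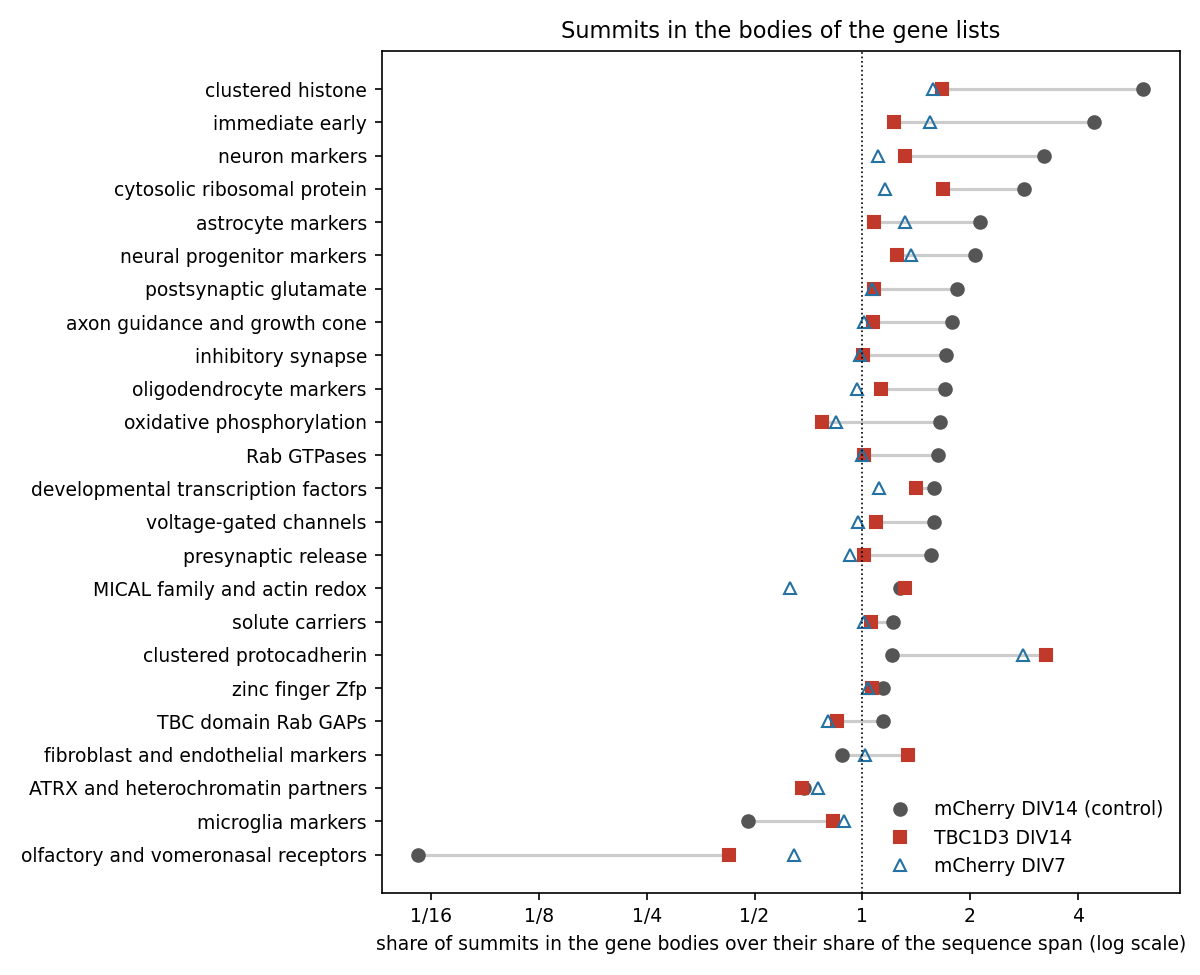
Share of summits in the gene bodies of each of 24 gene lists divided by the share of the sequence span those bodies take (log axis, 1 marks the span), for the DIV14 control, TBC1D3 and DIV7 mCherry lists, ordered by the control. The control ranges from 0.0573 for olfactory and vomeronasal receptors to 6.10 for clustered histone genes, and most TBC1D3 values lie between those and 1, near the DIV7 values.

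Immediate early genes at their ends were occupied in 29 of 39 cases in the control (74.4%, with 44.3% of all genes) and 17 in TBC1D3 (43.6%, with 34.7% of all genes). Egr1, the best known of these transcription factors, had the list's highest control value, 8.61-fold on 46 fragments, and 3.29-fold on 8 in TBC1D3. Arc, a synaptic plasticity gene, had 3.32-fold on 15 and 3.16-fold on 6, and the orphan receptor gene Nr4a3 3.41-fold on 23 and 2.71-fold on 5. Btg1 (4.30-fold on 19) and Klf10 (3.94-fold on 17) had control peaks alone, while Npas4 had a TBC1D3 peak alone, on 3 fragments at 1.80-fold. With lists cut at whole p levels 9 genes were in both, 17 in the control alone and 0 in TBC1D3 alone. The shares then were 66.7% in the control and 23.1% in TBC1D3, with 36.9% and 15.8% of all genes.

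Housekeeping lists lay above all genes in the control (44.30%), and in TBC1D3 their place against all genes (34.70%) turned with the list length. Of 68 clustered histone genes, the control occupied 46 (67.6%) and TBC1D3 30 (44.1%), of 82 ribosomal protein genes 56 (68.3%) and 35 (42.7%), and of 101 oxidative phosphorylation genes 71 (70.3%) and 38 (37.6%). With lists cut at whole p levels the TBC1D3 shares were 8.82%, 14.6% and 13.9%, all under the 15.80% of all genes. Histone genes lie close together, so that some share 1 peak (H2ac7 and H2bc7 in both lists). Rpl15, a large subunit protein gene, had 4.16-fold on 18 fragments and 2.71-fold on 5. Rps13 had 4.16-fold on 18 in the control alone, and Rps7 3.61-fold on 7 in TBC1D3 alone. Of these lists' control genes, 43.5%, 46.4% and 40.8% were also occupied in TBC1D3, near the 42.50% over all genes. With lists cut at whole p levels the shares were 9.38%, 17.6% and 13.3%, all under the 22.30% over all genes.

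Ends of developmental regulators and receptor genes were occupied more often in TBC1D3 than in the control. The list of Hox, Fox, Pax, Sox and related transcription factor genes with the Wnt ligands had 48 of 183 occupied in the control (26.2%, with 44.3% of all genes). In TBC1D3 87 were occupied (47.5%, with 34.7% of all genes), 61 of them in TBC1D3 alone, compared with 68 in MICAL1-M1 and 86 in DIV7. In their bodies the control was the higher one, with 1.59 times the span against 1.41 times in TBC1D3. With lists cut at whole p levels the order at the ends turned as well, with 39 in the control (13 in both and 26 in the control alone) and 37 in TBC1D3 (24 alone). These were 21.3% and 20.2% of the list, with 36.9% and 15.8% of all genes. Gata4, a heart and gut factor, had 3.61-fold on 7 fragments and Foxc2, a mesoderm factor, 3.17-fold on 7 in TBC1D3 alone, and Sox5 had 2.85-fold on 20 in the control and 4.95-fold on 10 in TBC1D3. Olfactory and vomeronasal receptor genes, which are silent in most neurons, were occupied in 14 of 1467 cases in the control (0.954%) and 158 in TBC1D3 (10.8%), with 240 in DIV7 and 30 in MICAL1-M1. Both values are below those over all genes, and in gene bodies the shares were 0.0573 and 0.424 times the span, with 0.644 in DIV7. Their TBC1D3 peaks were low, for example Olfr279 with 3.60-fold on 7 fragments and Vmn2r129 with 3.57-fold on 7. Clustered protocadherin genes, which give neurons a surface identity, were occupied in 23 (40.4%) and 25 (43.9%) of 57 cases and in 40 at DIV7. Their bodies on chromosome 18 held 1.21 times their span in the control, 3.26 times in TBC1D3 and 2.82 times in DIV7.

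Genes of the pathways named by the study were occupied more often than genes overall in both lists, by little for the ATRX partners in the control. Of 38 genes for Rab GTPase-activating proteins with a TBC domain, the family of TBC1D3, 25 were occupied in the control (65.8%, with 44.30% of all genes) and 16 in TBC1D3 (42.1%, with 34.70% of all genes), with 11 in both. With lists cut at whole p levels the TBC1D3 count was 5 (13.2%), under the 15.80% of all genes, and 1 of the 8 MICAL and reductase genes below (12.5%) was under it too. Tbc1d12 had 3.29-fold on 14 fragments and 3.56-fold on 8, Tbc1d7, a subunit of the TSC complex, 4.38-fold on 19 in the control alone, and Rabgap1 2.71-fold on 5 in TBC1D3 alone. Of 55 Rab GTPase genes, 44 (80.0%) and 28 (50.9%) were occupied. Rab10 had 4.06-fold on 8 fragments in TBC1D3 alone, Rab5a, of early endosomes, 2.97-fold on 15 in the control alone, and Rab40b 5.26-fold on 23 in the control alone. Among 8 MICAL and methionine sulfoxide reductase genes, 6 and 5 were occupied, with Mical1 in the control alone (1.87-fold on 8) and Mical2 and Mical3 in TBC1D3 alone (2.25-fold and 2.26-fold on 4 each). Among 42 ATRX partner and heterochromatin genes, 20 (47.6%) and 19 (45.2%) were occupied and 9 were in both. Trim28, a corepressor of zinc finger proteins, had 4.77-fold on 22 fragments and 2.71-fold on 5. Suv39h2, which methylates histone H3 at lysine 9, and Ezh2, of the Polycomb complex, were in the control alone (3.94-fold on 17 and 3.07-fold on 13), and Hira and Ehmt2 in TBC1D3 alone (2.67-fold on 5 each). Zfp genes, many of which encode partners of Trim28, were occupied in 228 (59.1%) and 127 (32.9%) of 386 cases.

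Markers of the cell types that such cultures can hold were read in the same way. Neuron markers were occupied in 15 and 9 of 19 cases, astrocyte markers in 10 and 7 of 20, oligodendrocyte markers in 10 and 8 of 19 and neural progenitor markers in 13 and 7 of 20. Microglia markers were occupied in 0 of 19 in the control and 7 in TBC1D3, with 7 also in DIV7 and 1 in MICAL1-M1, and fibroblast and endothelial markers in 6 and 8 of 20. In TBC1D3 the shares of the 5 lists other than neuron markers ran from 35.0% to 42.1%, near the 34.70% of all genes, and microglia markers stood at 36.8%, so these counts do not set the markers apart there. With lists cut at whole p levels 6 of the 19 microglia markers (31.6%) were occupied in TBC1D3, with 15.80% of all genes. In the control all genes stood at 44.30%. The microglia peaks of TBC1D3 included the complement genes C1qc (3.16-fold on 6 fragments) and C1qa (2.71-fold on 5) and Tmem119 (3.11-fold on 6). At neuron markers, Map2, a dendrite protein gene, had 2.97-fold on 16 and 3.42-fold on 7, and Tubb3, neuronal tubulin, 2.63-fold on 11 in the control alone.

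Across all 24 lists the control had more occupied genes in 18, TBC1D3 in 5 and both the same number in 1. With lists cut at whole p levels, and likewise with the TBC1D3 list shortened to the control's length, TBC1D3 had more in 2 lists, the microglia markers and the receptor genes, and the control in 22. In a window of 3 kb TBC1D3 had more in 8 lists, adding the oligodendrocyte markers, the solute carriers and the voltage-gated channels, and the control in 15. The 5 lists in which TBC1D3 exceeded the control with all peaks, the microglia, fibroblast and endothelial markers, the developmental regulators, the receptor genes and the protocadherins, were also the 5 with the lowest share of occupied genes in the control, 40.4% or less.

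CG dinucleotides and the GC box in promoters sorted the gene classes of starts in the same order as the sites, while the other short sequences read below did not. The 300-base windows of genes occupied at the start in both lists had a median of 24 CG dinucleotides, those of control-only genes 21, those of TBC1D3-only genes 10 and those of the rest 4. Over all genes the median was 14. The GC box GGGCGG, searched on both strands, was in 70.0% of windows of genes in both lists, 66.4% of control-only, 44.4% of TBC1D3-only and 26.3% of the rest, and in 47.3% of all 16457 genes. The cAMP response element TGACGTCA, its own reverse complement, was in 2.97%, 3.79%, 1.48% and 1.48%, and in 2.40% of all. The telomere repeat unit TTAGGG, on both strands, was in 9.64%, 10.5%, 11.4% and 10.4%, and in 10.4% of all. The printed windows of Frmd3, Arl4c, Ttc19, Hey2 and Aldh1b1 each hold the GC box on one strand or the other, and Ttc19 holds the cAMP element. None of these letters shows a bound factor.

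**Figure D5:**
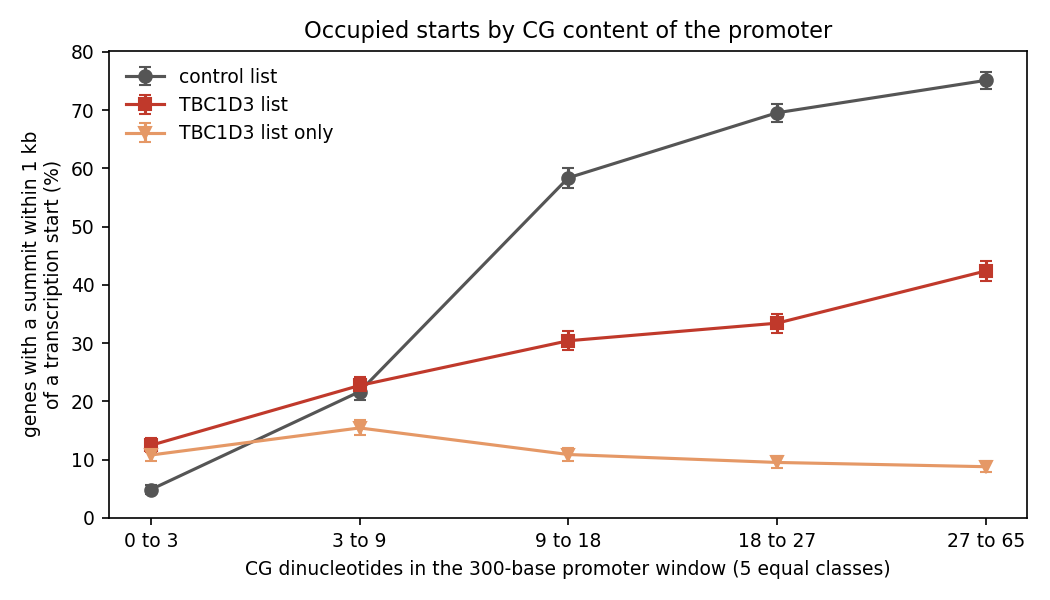
Percent of genes with a summit within 1 kb of a transcription start (vertical axis, with 95% exact binomial intervals) in 5 equal classes of genes ordered by the number of CG dinucleotides in the 300-base promoter window (horizontal axis), in the control list, the TBC1D3 list and the TBC1D3 list alone. From the lowest to the highest class the control goes from 4.86% to 75.1%, TBC1D3 from 12.5% to 42.4% and TBC1D3 alone from 10.8% to 8.78%. All are shares of all genes of the class, including starts occupied in the control, which TBC1D3 alone cannot hold.

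Ordered by CG content, occupied starts became more frequent in both lists. The starts of TBC1D3 alone, as a share of all genes, did not rise from the lowest to the highest class. In the class of genes with 0 to 3 CG, 4.86% (4.15 to 5.65%) were occupied in the control and 12.5% (11.3 to 13.6%) in TBC1D3. In the class with 27 to 65 CG the shares were 75.1% (73.6 to 76.6%) and 42.4% (40.7 to 44.1%). The lists crossed in the second class, with 21.7% and 22.7%. Starts of TBC1D3 alone went from 10.8% (9.74 to 11.9%) to 8.78% (7.84 to 9.80%), with the highest share in the second class, 15.4%. A start already occupied in the control cannot be in TBC1D3 alone, and such starts became more frequent with CG content. They numbered 160 of 3292 in the lowest class and 2472 of 3291 in the highest, while TBC1D3 alone had 355 and 289. Starts left free by the control thus fell far more steeply than those of TBC1D3 alone. Among the free starts, the part occupied in TBC1D3 was therefore higher in the highest class than in the lowest.

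With all peaks, long genes held more of the control's summits than their share of the span, and TBC1D3 lay closer to that share. Bodies of 100 to 500 kb held 1.47 times the span in the control and 1.06 times in TBC1D3, and those of 500 kb or more 1.57 and 1.07 times. Among the 4000 strongest peaks of each list, bodies of 100 to 500 kb held 1.28 and 1.10 times. Those of 500 kb or more held 0.994 and 1.14 times, so the control had no excess there. Over 2313 protein-coding genes of more than 100 kb, the median was 4.87 control and 8.41 TBC1D3 summits per 100 kb, with 1.33 to 11.2 and 4.51 to 12.8 between the 10th and 90th percentiles. These densities are not scaled to list length, 96230 control and 195085 TBC1D3 peaks, so the higher TBC1D3 density is not an excess in long genes. The genes with the most control-only summits per length were 4 genes of transcription regulators and Gria2, the AMPA receptor subunit gene. Zfp608 had 23.9 control-only and 6.70 TBC1D3-only summits per 100 kb, Gria2 23.6 and 8.14, and Zeb2, a repressor in interneuron and cortical development, 22.4 and 8.96. Tcf4, a transcription factor gene linked to intellectual disability, had 22.1 and 10.2, and Hivep2 21.6 and 11.1. The control counted 91 summits in Tcf4 and TBC1D3 51, with 108 in MICAL1-M1 and 61 in DIV7. On the TBC1D3 side all 5 were gamma protocadherin genes that share most of their body and therefore their peaks: Pcdhga6 had 38.6 TBC1D3-only and 5.94 control-only summits per 100 kb, and Pcdhgb2, Pcdhga5, Pcdhga8 and Pcdhgb4 had between 37.9 and 38.2 TBC1D3-only summits. Pcdhga6 counted 59 TBC1D3, 15 control, 23 MICAL1-M1 and 49 DIV7 summits, so the shallow mCherry library was nearly as dense there.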

How the data were processed

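ATRX ChIP-seq peak lists were compared for 1 library a group. The tools named, per the submitters' processing notes, include MACS (1.4.2) and Bowtie (1.3.0), then ChIPseeker (1.26.2) and SAMtools (1.9), with roles and genome build not given in the sources used here. Scaffold names fit GRCm38, which was used for genes. The deposited values were the fold ratio of each peak over background, its -log10 p and -log10 q, a score that repeats the -log10 p, and the summit; the lists hold no read totals. Whole pileups were recovered from fold and p (within 0.001, for at least 99.98% of peaks in each list), assuming fold is pileup plus 1 over background plus 1. Lists deposited by the authors were not pooled, and pairs of reads or duplicates could not be checked.

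Overlap of 1 bp or more, summit windows, moved peaks and exact binomial intervals were computed in Python 3.11.15 (numpy 2.4.6, pandas 2.3.3, scipy 1.17.1, figures with matplotlib 3.10.9), and the steps were tested on simulated peaks. Genes, starts and promoter letters came from RefSeq tables. The members and the 24 gene lists were chosen with earlier results of these data known, and 1 list (Rab GTPases) was corrected afterwards to drop 2 kinds of interacting protein. Named genes followed fixed rules: the 10 with the best worse rank in both lists, the 10 of smallest p in each list alone with no peak of the other list within 10 kb, up to 4 of each class per gene list of smallest p, the 3 bins of 1 Mb and 5 long genes of largest difference each way. The alternatives were a 3 kb window, any base in the window, starts only, 50% overlap, summits within 250 bp, a q of at most 0.05, the 4000 strongest peaks, and lists of equal size.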

Additional observations from a re-analysis of the deposited data

Results flagged for a closer look

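Peaks outside chromosomes 1 to 19 entered no comparison above. They made up 2.00% of the deposited TBC1D3 list (3974 of 199059 peaks, 3563 of them on chromosome X) and 0.455% of the control list (440 of 96670, 404 on chromosome X). The share was higher in the TBC1D3 list than in its control, which drew attention to it. The other lists had 0.977% (MICAL1-M1) and 3.07% (mCherry at DIV7), so that the shallow control library exceeded TBC1D3. The sex of the embryos is not given in the sources used here, and the cause was not tested.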

How the results depend on the processing

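No paired analysis was possible because each group has 1 library and no result comes from a test between samples; for the same reason no library could be left out. The cause of the moves below was not tested beyond what each setting does by its construction. Control peaks overlapped by TBC1D3 peaks (12.7%) came to 3.63% with 50% of both peaks overlapping, 6.81% with summits within 250 bp, 0.447% with a q of at most 0.05 in both lists and 3.30% with the 4000 strongest peaks of each. TBC1D3 peaks overlapped by control peaks (6.43%) came to 1.79%, 3.36%, 6.08% and 3.40%. With lists of equal size (7.24%) the share was 2.09%, 3.76% and, at whole p levels, 6.46%. Breaking ties by position picked the same 96230 peaks and was therefore no separate check. Gene-end shares of shared, TBC1D3-only and control-only peaks (19.6%, 3.01% and 8.47%) were 28.4%, 7.69% and 14.2% in a 3 kb window, 22.5%, 3.16% and 8.91% with equal size, 17.8%, 1.51% and 7.10% at starts and 28.9%, 3.70% and 11.1% at whole p levels, in the same order throughout. Genes in both lists (3886) numbered 7795 in a 3 kb window, 2420 with equal size, 9 with q of at most 0.05 and 1703 at whole p levels. Genes in TBC1D3 alone (3293) numbered 1803, 22 and 1553 in the last 3 settings and 1823 at starts. Genes in the control alone (5264) numbered 1840 with q of at most 0.05. A 3 kb window turned the order of these classes, with 4565 genes in TBC1D3 alone and 3680 in the control alone. Of 48 list counts (24 lists in each of the 2 libraries), 19 moved by over 1.5 times in a 3 kb window, 18 with equal size, 25 at whole p levels and 47 with q of at most 0.05.

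Depth limits the TBC1D3 side most: 90.2% of its peaks stand on 5 fragments or fewer, so a missing peak there is not an absent site, and a single TBC1D3-only peak is weak evidence of a site.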
